A study of Arabidopsis thaliana with 40 samples.

Results

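The 9 cellulose synthase (CESA) genes of *Arabidopsis thaliana* described here were taken by locus from the 33602 gene IDs counted in each of 12 RNA libraries: *CESA1*, *CESA2*, *CESA3*, *CESA5*, *CESA6* and *CESA9*, known from the primary cell wall, and *CESA4*, *CESA7* and *CESA8*, known from the secondary wall. The libraries came from whole seedlings of the Col-0 ecotype grown for 15 days on Murashige and Skoog agar in long days and harvested 6 to 8 h after the lights came on. There were 3 biological replicates each of wild type (wt), *ubp12* (allele *ubp12-1*), *ubp13* (allele *ubp13-3*) and the double mutant *ubp12/13* (*ubp12-1 ubp13-3*). UBP12 and UBP13 are ubiquitin-specific proteases that remove ubiquitin from proteins, among them histone H2A. *ubp13-3* is described as a weak allele, and the double mutant as sterile and stunted, so that it had to be kept with *ubp13-3* heterozygous. Regions of increased H2A mono-ubiquitination (H2Aub1) in *ubp12/13* are used at the end.

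Cellulose is made at the plasma membrane by rosette-shaped complexes built from 3 kinds of CESA protein. In the primary wall of growing cells the complex holds CESA1, CESA3 and a CESA6-type subunit, a place that CESA6, CESA2, CESA5 and CESA9 can share. In the thick secondary wall of xylem vessels and fibres it holds CESA4, CESA7 and CESA8, which all need each other, and mutants of any of them have collapsed xylem (*irx* mutants). Leaves and young seedlings consist mostly of cells with primary walls, with secondary walls in a small share of vascular cells.

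The genes lie on chromosomes 2, 4 and 5. In TAIR10 coordinates, *CESA3* (AT5G05170) runs from 1530132 to 1535558, *CESA5* (AT5G09870) from 3072870 to 3078416, *CESA7* (AT5G17420) from 5736630 to 5741500, *CESA4* (AT5G44030) from 17714390 to 17719723 and *CESA6* (AT5G64740) from 25881033 to 25886728. On chromosome 4 are *CESA8* (AT4G18780, 10312624 to 10316886), *CESA1* (AT4G32410, 15640490 to 15646844) and *CESA2* (AT4G39350, 18296388 to 18302192). *CESA9* (AT2G21770) lies on chromosome 2 from 9284391 to 9289744. Their merged exons are 3347 to 4247 bases long, and their coding sequences 2958 to 3267 bases.

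Because the members are related in sequence and the reads were 50 bases long, the exons were searched for stretches that a read could not assign. The closest stretch belongs to *CESA5* and *CESA6*, which share an identical run of 50 bases within the 74 exonic bases shown here, because it is the place where reads of both members are least separable. The capitals mark the 2 bases that differ. The stretches lie on the plus strand at chr5:3076016-3076089 in *CESA5* and chr5:25884361-25884434 in *CESA6*.
CESA5: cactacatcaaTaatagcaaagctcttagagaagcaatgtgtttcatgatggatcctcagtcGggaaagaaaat
CESA6: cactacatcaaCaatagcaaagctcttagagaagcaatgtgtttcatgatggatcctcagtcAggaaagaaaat
Among all 50-base words of the exons, 1 was the same in *CESA5* and *CESA6* and none in any other member. Allowing 2 mismatches, 3.08% of the words of *CESA6* and 2.76% of those of *CESA5* came close to another member, and none of *CESA3*, *CESA4* or *CESA7* did.

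The libraries held 6545534 to 15225396 counts on nuclear genes, and the lowest count of a member was 4 reads (*CESA9* in wt) and the highest 4636 reads (*CESA1* in *ubp12/13*). Chloroplast and mitochondrial genes took 0.268% to 1.52% of the counts, but 6.15% in wt replicate 3. In the libraries labelled *ubp13*, *UBP13* counts were 2.49-fold higher than in wt (158 ± 11.5 against 63.1 ± 0.499 CPM, counts scaled to equal library size; SD, n = 3; edgeR quasi-likelihood test, Benjamini-Hochberg adjusted p = 0.000593), which goes against a loss of transcript. *UBP12* was 0.259-fold in *ubp12* and 0.326-fold in *ubp12/13*, and *UBP13* was 1.25-fold in *ubp12/13*. The values of *UBP13* thus differed between the libraries labelled *ubp13* and those labelled *ubp12/13*, although both are described with the *ubp13-3* allele. The reason was not tested. Counts over the whole gene do not separate transcript before an insertion from transcript after it. Of 8 root markers, *COBL9*, *EXPA7*, *EXPA18*, *PLT1*, *MYB36* and *TIP2;3* had 0 to 3 reads in every library, although the label is whole seedlings.

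Levels were expressed as CPM on library sizes scaled by the trimmed mean of M values (TMM), and, to compare members with each other, as RPKM, which divides CPM by exon length in kilobases. In wt the order by RPKM was *CESA3* (69.9 ± 1.66), *CESA1* (64.1 ± 1.93), *CESA6* (40.2 ± 3.84), *CESA2* (34.0 ± 3.09), *CESA5* (21.5 ± 1.85), *CESA4* (3.55 ± 0.224), *CESA7* (2.09 ± 0.631), *CESA8* (2.07 ± 0.0651) and *CESA9* (0.290 ± 0.127; SD, n = 3 each). *CESA7* and *CESA8* did not differ beyond their spread, and the ranges of *CESA6* (36.3 to 44.0) and *CESA2* (31.6 to 37.5) overlapped. The other neighbours in this order did not overlap. All 9 members passed the filter of more than 1 CPM in at least 2 libraries in every comparison. *CESA10* (AT2G25540), the nearest relative of *CESA1*, is no member and had 0 to 3 reads in each library, so it did not pass.

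In *ubp12/13*, *CESA1* (68.1 ± 3.66 RPKM) stood above *CESA3* (64.6 ± 1.12 RPKM) in the order, and their ranges overlapped (65.0 to 72.1 and 63.5 to 65.7). *CESA6* followed with 55.4 ± 7.26 RPKM, *CESA2* with 42.6 ± 2.56 and *CESA5* with 27.5 ± 4.78. The secondary wall members were at 2.86 ± 0.141 (*CESA4*), 1.50 ± 0.190 (*CESA8*) and 1.47 ± 0.113 RPKM (*CESA7*). Of these, *CESA8* and *CESA7* did not differ beyond their spread.

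**Figure D1:**
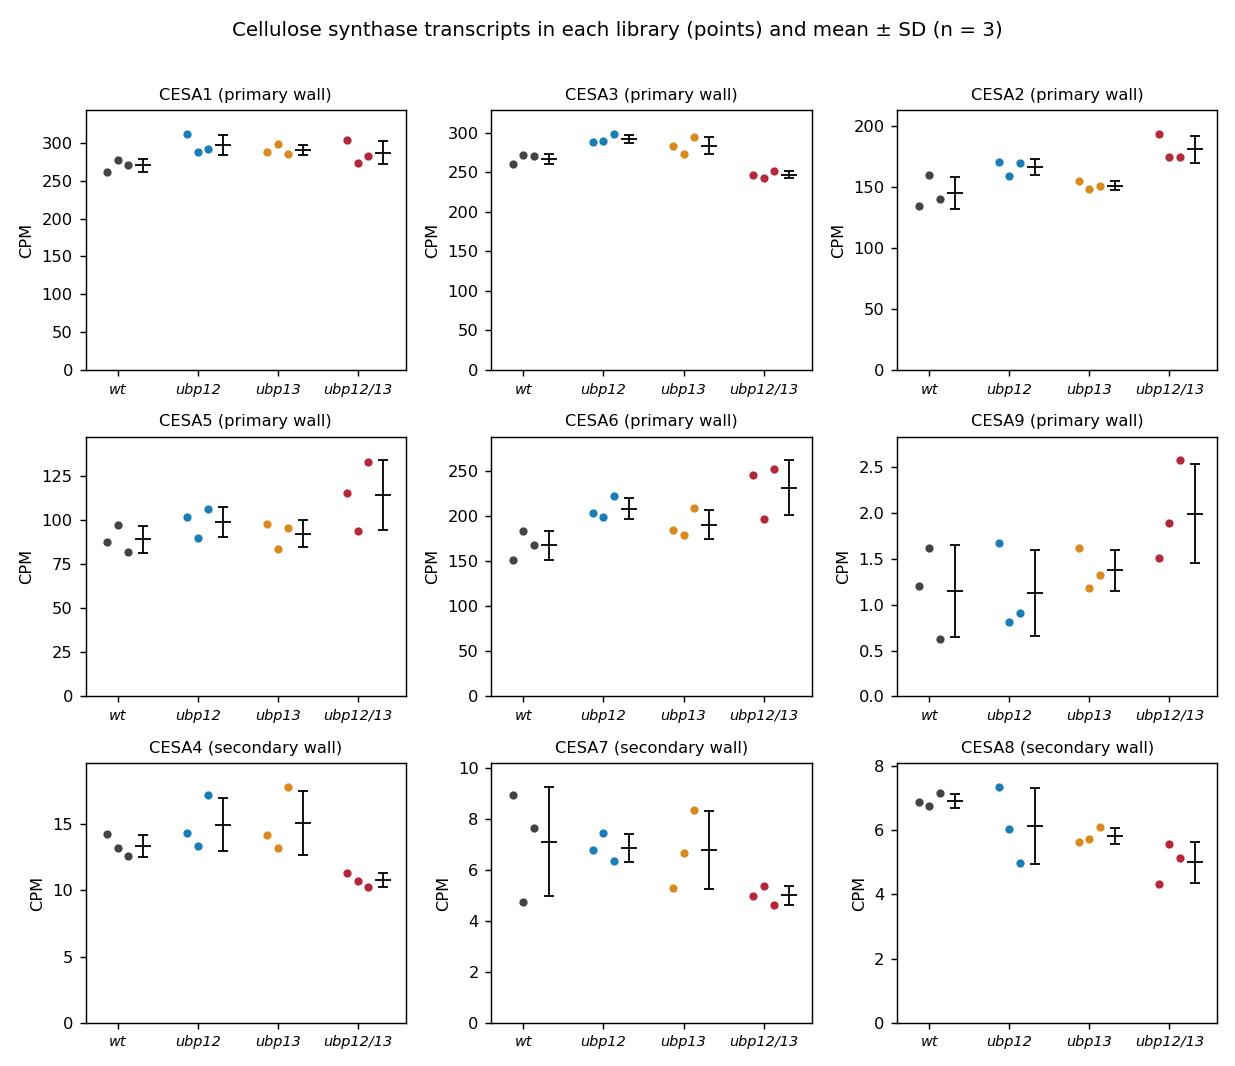
CPM of each CESA gene (vertical axis, linear, from 0) in the 12 libraries by genotype; points are libraries and bars the mean ± SD (n = 3). *CESA2* and *CESA6* lie higher in *ubp12/13* than in wt without overlap, and *CESA3*, *CESA4* and *CESA8* lower without overlap.

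The first comparison was that of the libraries labelled *ubp12/13* with wt. In *ubp12/13* against wt, 2 of 9 members rose, *CESA6* 1.37-fold and *CESA2* 1.24-fold, both CESA6-type subunits. 1 of 9 fell, *CESA8*, to 0.723-fold. Of all 17916 genes tested, 16.0% rose and 15.1% fell by the same rule (adjusted p under 0.05), so these counts are near those of genes at large. None of the 9 reached a fold of 2 in either direction (absolute log2 fold change, log2FC, of at least 1), which 5.94% of genes did upward and 4.02% downward.

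*CESA6* had 151, 183 and 168 CPM in the wt libraries and 245, 196 and 252 CPM in those of *ubp12/13*. The groups did not overlap, but *ubp12/13* replicate 2 stood nearer to wt than to its own group. The log2FC was 0.46 ± 0.12 (SE; edgeR quasi-likelihood test, Benjamini-Hochberg adjusted p = 0.0208). Without wt replicate 1, wt replicate 3, *ubp12/13* replicate 1 or *ubp12/13* replicate 3 the adjusted p was 0.0638, 0.0588, 0.0835 and 0.0646.

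*CESA2*, which is known to act in place of CESA6 in several tissues, had 134, 159 and 140.4 CPM in wt and 193, 174 and 175 CPM in *ubp12/13*. All *ubp12/13* libraries were above all wt libraries. The log2FC was 0.31 ± 0.09 (SE; edgeR quasi-likelihood test, adjusted p = 0.0353). Every left-out library other than wt replicate 2 ended the call (adjusted p = 0.0878 without wt replicate 1, 0.0925 without wt replicate 3, and 0.140, 0.0526 and 0.0604 without *ubp12/13* replicates 1, 2 and 3).

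*CESA5*, known for its part in the mucilage and walls of the seed coat, had 87.7, 97.2 and 82.1 CPM in wt and 115, 93.5 and 133 CPM in *ubp12/13*. The groups overlapped through *ubp12/13* replicate 2, the same library that was lowest for *CESA6*. The log2FC was 0.35 ± 0.13 (SE), and the edgeR adjusted p of 0.0811 became 0.0157 without that library. In a common fit of 12 libraries the edgeR adjusted p of *CESA5* was 0.0444. *CESA9*, a gene known mainly from the seed, was the lowest member, with 4 to 13 reads per wt library and 20 to 34 reads per *ubp12/13* library. In CPM these were 1.20, 1.62 and 0.623 against 1.51, 1.89 and 2.57, with overlap, and the difference did not pass the test (log2FC 0.74 ± 0.36, SE; edgeR adjusted p = 0.152).

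*CESA1* and *CESA3*, the subunits that every primary wall complex is known to need, did not pass the test. *CESA1* had 262, 278 and 271 CPM in wt and 304, 274 and 284 CPM in *ubp12/13* (log2FC 0.08 ± 0.08, SE; edgeR adjusted p = 0.485). *CESA3* had 260.2, 272 and 270.3 CPM in wt and 247, 243 and 251 CPM in *ubp12/13*. All *ubp12/13* libraries of *CESA3* were below all wt libraries, by a small step (log2FC −0.12 ± 0.07, SE; edgeR adjusted p = 0.241), and scaling by library totals turned this to 0.03. That scaling moved the median log2FC of all genes in this comparison by 0.15, because the TMM factors of *ubp12/13* were 1.07 to 1.11 and those of the other libraries 0.930 to 1.01. By library totals, 3 members were higher (*CESA2*, *CESA5* and *CESA6*) and none lower.

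Of the secondary wall members, *CESA8* had 6.87, 6.74 and 7.17 CPM in wt and 4.31, 5.56 and 5.15 CPM in *ubp12/13*. All *ubp12/13* libraries were below all wt libraries, and the log2FC was −0.47 ± 0.15 (SE; edgeR quasi-likelihood test, adjusted p = 0.0454). The call was lost by DESeq2 (adjusted p = 0.154), by library totals (0.155), without a filter on low counts (0.0635) and without any library other than *ubp12/13* replicate 2 (0.0870, 0.0859 and 0.0962 without wt replicates 1, 2 and 3, and 0.147 and 0.0849 without *ubp12/13* replicates 1 and 3). *CESA4* had 14.3, 13.2 and 12.6 CPM in wt against 11.3, 10.7 and 10.3 CPM in *ubp12/13*. These groups did not overlap either, but the difference did not pass (log2FC −0.32 ± 0.11, SE; edgeR adjusted p = 0.0544). *CESA7* had 8.94, 4.74 and 7.63 CPM in wt against 4.99, 5.38 and 4.62 CPM in *ubp12/13*, with wt replicate 2 inside the *ubp12/13* range (log2FC −0.51 ± 0.22, SE; edgeR adjusted p = 0.113). Without wt replicate 2 the log2FC of *CESA7* was −0.74 and its adjusted p 0.0167.

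Without regard to the test, 2 members had all *ubp12/13* libraries above wt and 3 had all below, against 24.1% and 22.6% of the genes tested. Of the primary wall members 5 of 6 had a positive log2FC, with a median of 0.33, and all 3 secondary wall members a negative one, with a median of −0.47. The median over all genes tested was −0.00.

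**Figure D2:**
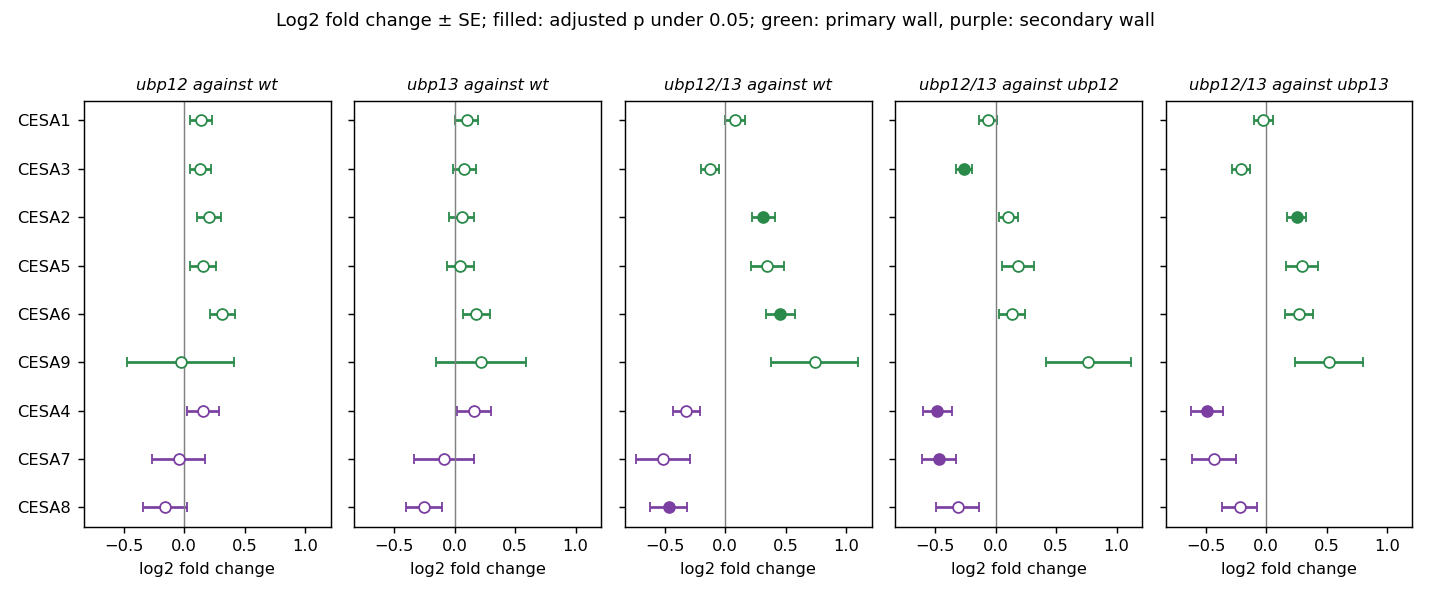
Log2 fold change ± SE (horizontal axis) of the 9 CESA genes in the 5 comparisons of genotypes, primary wall members in green and secondary wall members in purple; filled points passed an adjusted p of 0.05. In *ubp12/13* against wt *CESA2* (0.31) and *CESA6* (0.46) are filled to the right and *CESA8* (−0.47) to the left, and no point is filled for either single mutant against wt.

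The libraries labelled as single mutants were compared with wt next. In *ubp12* no member passed the test, while 1.08% of 17712 genes rose and 0.706% fell. By edgeR's quasi-likelihood test 1 of 9 members had an unadjusted p under 0.05, against 15.2% of genes, and DESeq2 called none. That member was *CESA6*, with 204, 199 and 221 CPM, all above its wt libraries (log2FC 0.31 ± 0.10, SE; edgeR adjusted p = 0.174). *CESA1* (312, 288 and 292 CPM) and *CESA3* (289, 289.7 and 299 CPM) also lay above all wt libraries, with log2FC of 0.14 and 0.13. Thus 3 of 9 members lay above wt without overlap and none below, against 9.69% and 10.3% of genes. The other log2FC values ran from −0.16 (*CESA8*) to 0.20 (*CESA2*).

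In the libraries labelled *ubp13* no member passed either, with 0.0227% of 17615 genes higher and 0.00568% lower. No member had an unadjusted p under 0.05 by edgeR's quasi-likelihood test, against 6.26% of genes, and DESeq2 called none. *CESA1* (288, 299 and 286 CPM) and *CESA3* (283, 273 and 295 CPM) lay above all wt libraries and *CESA8* (5.64, 5.72 and 6.11 CPM) below them, so 2 members were above and 1 below, against 6.13% and 5.38% of genes. Their log2FC values were 0.10, 0.08 and −0.25. All 9 log2FC values lay between −0.25 and 0.22. Both single mutant comparisons share the wt libraries with that of the double mutant.

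Set against *ubp12*, the genotype without the *ubp13-3* allele, 3 of 9 members fell in *ubp12/13* and none rose, where 13.5% of 17890 genes fell and 13.0% rose. These were *CESA4*, *CESA7* and *CESA3*. By library totals, which shifted the median of all genes by 0.16, the split was instead 0 lower and 2 higher (*CESA2* and *CESA6*). *CESA4* had 14.4, 13.4 and 17.2 CPM in *ubp12* against the 11.3, 10.7 and 10.3 CPM in *ubp12/13* (log2FC −0.48 ± 0.12, SE; edgeR quasi-likelihood test, adjusted p = 0.0200). *CESA7* had 6.79, 7.45 and 6.33 CPM in *ubp12*, all above the *ubp12/13* libraries (log2FC −0.47 ± 0.14, SE; edgeR adjusted p = 0.0379). *CESA3* was lower by a log2FC of −0.26 ± 0.07 (SE; edgeR adjusted p = 0.0213), and its groups did not overlap.

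These calls were close to the threshold. That of *CESA7* was lost without any 1 library (adjusted p = 0.0536 to 0.117), by DESeq2 (0.159), without a filter on low counts (0.0545) and in a common fit of 12 libraries (0.131). That of *CESA4* was lost without *ubp12* replicate 3 (0.0548) or *ubp12/13* replicates 1 or 3 (0.050 and 0.0523), and that of *CESA3* without *ubp12* replicate 3 (0.0573) or *ubp12/13* replicates 1 or 2 (0.0777 and 0.0675). In counts thinned to equal depth *CESA4* (0.0604) and *CESA3* (0.0530) did not pass. The log2FC kept its sign in each. Without overlap, 1 member was above *ubp12* (*CESA2*) and 3 below, against 22.5% and 20.7% of genes.

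Against the libraries labelled *ubp13*, *CESA2* rose and *CESA4* fell in *ubp12/13*, 1 of 9 members each, where 16.6% of 17821 genes rose and 16.4% fell. *CESA2* had 155, 148 and 151 CPM in the libraries labelled *ubp13*, all below the 193, 174 and 175 CPM in *ubp12/13* (log2FC 0.25 ± 0.08, SE; edgeR adjusted p = 0.0426). *CESA4* had 14.2, 13.2 and 17.8 CPM in the libraries labelled *ubp13*, all above *ubp12/13* (log2FC −0.49 ± 0.13, SE; edgeR adjusted p = 0.0231). By library totals, with a median shift of 0.21, 3 members were higher and none lower. The call of *CESA2* was lost without any 1 library (adjusted p = 0.0575 to 0.181), without a filter on low counts (0.0591) and in thinned counts (0.0782), and that of *CESA4* without *ubp12/13* replicate 1 (0.0502) or 3 (0.0562). In all, 1 member was above and 3 were below without overlap, against 24.8% and 23.3% of genes.

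A test over all 4 genotypes asked which members differed anywhere. It called 3 of 9, *CESA6* (edgeR quasi-likelihood test, adjusted p = 0.0274), *CESA4* (0.0280) and *CESA2* (0.0335), against 32.5% of 18212 genes, so that the members were called about as often as genes at large. *CESA3* was just outside (adjusted p = 0.0507). Without *ubp12/13* replicate 1 or 3 no member was called, and without wt replicate 3 there was 1.

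The difference between the log2FC of *ubp12/13* and the sum of the log2FC of both single mutants was tested in a fit of all 12 libraries. It was below 0 for *CESA4* (−0.64 ± 0.19, SE; edgeR adjusted p = 0.0353) and *CESA3* (−0.34 ± 0.10, SE; edgeR adjusted p = 0.0387). 2 of 9 members were thus lower than the sum and none higher, where 7.57% of genes were lower and 6.83% higher. For both genes the single mutants were above wt on average and *ubp12/13* below it. *CESA4* averaged 13.4 ± 0.843 CPM in wt, 15.0 ± 1.98 in *ubp12*, 15.1 ± 2.43 in the libraries labelled *ubp13* and 10.8 ± 0.532 in *ubp12/13* (SD, n = 3). *CESA3* averaged 267 ± 6.35, 292 ± 5.36, 284 ± 11.1 and 247 ± 4.28 CPM in the same order. By library totals neither difference passed (adjusted p = 0.127 for *CESA4* and 0.416 for *CESA3*). That of *CESA4* did not pass by DESeq2 (0.0527), nor that of *CESA3* without a filter (0.0952) or in thinned counts (0.0641). Leaving out libraries 1 at a time ended the call of *CESA3* in all cases but *ubp13* replicate 2 (adjusted p = 0.0546 to 0.0901). That of *CESA4* was lost without wt replicates 2 or 3, *ubp12* replicates 1 or 3, *ubp13* replicate 3 or any of *ubp12/13* (adjusted p = 0.0527 to 0.0849).

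Ratios within a library do not depend on how libraries are scaled, so the make-up of the family was also described by them, with no test. The ratio of *CESA6* to *CESA3* in RPKM was 0.533, 0.618 and 0.570 in wt, 0.646, 0.629 and 0.680 in *ubp12*, 0.595, 0.601 and 0.647 in the libraries labelled *ubp13*, and 0.909, 0.741 and 0.920 in *ubp12/13*. The *ubp12/13* libraries lay above all others, and *ubp12* above wt without overlap. The ratio of *CESA1* to *CESA3* was 0.916 ± 0.00982 in wt and 1.05 ± 0.0547 in *ubp12/13* (SD, n = 3), again above all other libraries in each of its replicates. The CESA6-type members (*CESA2*, *CESA5*, *CESA6* and *CESA9*) made up 41.7% ± 1.55 of the summed primary wall RPKM in wt, 43.5% ± 1.05 in *ubp12*, 42.0% ± 1.04 in the libraries labelled *ubp13* and 48.6% ± 2.01 in *ubp12/13*. *CESA3* made up 30.4% ± 0.956 in wt and 25.02% ± 1.31 in *ubp12/13*, and *CESA1* 27.9% ± 0.592 and 26.4% ± 1.06.

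The 3 secondary wall genes together held 3.72%, 2.77% and 3.28% of the summed RPKM of the family in wt and 2.098%, 2.48% and 2.06% in *ubp12/13*. The groups did not overlap, and the difference of −1.04 percentage points had p = 0.1 in an exact 2-sided permutation test, the smallest that 3 libraries against 3 can give. In *ubp12* the share was 2.92% ± 0.0322 and in the libraries labelled *ubp13* 3.03% ± 0.352 (SD, n = 3). Within the secondary wall group *CESA4* held 46.2% ± 3.95 in wt and 49.1% ± 2.81 in *ubp12/13*.

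**Figure D3:**
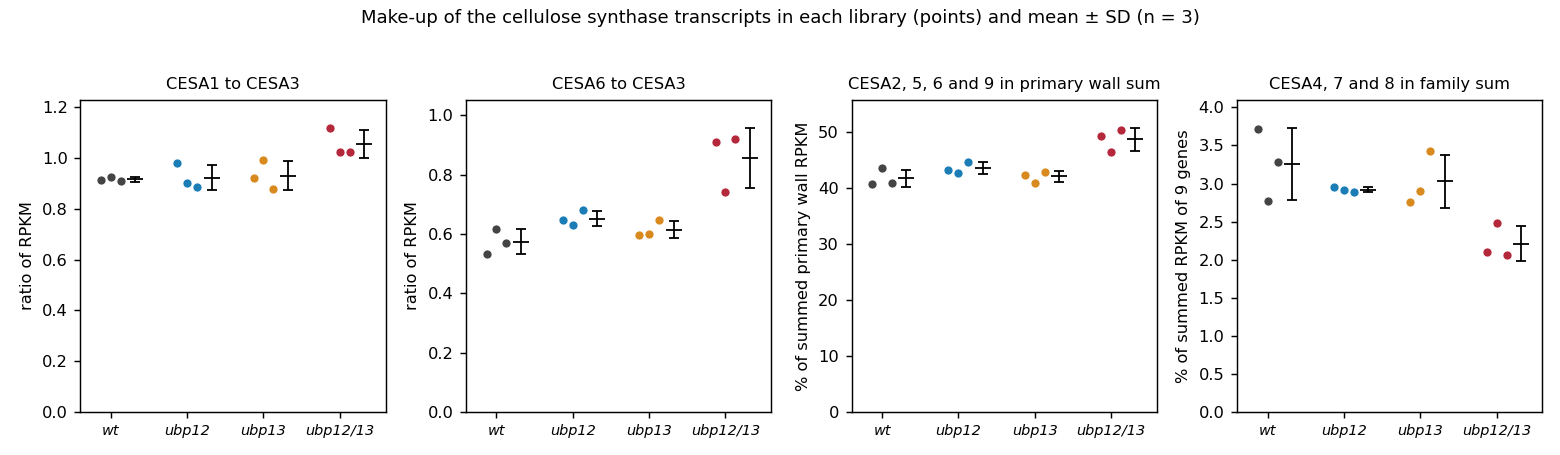
Ratios of RPKM of *CESA1* and *CESA6* to *CESA3*, and shares in percent of the CESA6-type members in the primary wall sum and of the secondary wall members in the family sum, per library (points) with mean ± SD (n = 3), by genotype. The *CESA6* to *CESA3* ratio is 0.741 to 0.920 in *ubp12/13* and at most 0.680 elsewhere, and the secondary wall share is 2.06% to 2.48% in *ubp12/13* and at least 2.76% elsewhere.

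Across the 12 libraries some members varied together, without clean sets (Pearson's r of log2 CPM, given as a description, since the libraries share genotypes and scaling). *CESA6* went with *CESA2* (r = 0.87) and *CESA5* (r = 0.86), and *CESA2* with *CESA5* (r = 0.76). Less closely, *CESA5* went with *CESA9* (r = 0.67), and *CESA1* with *CESA2* (r = 0.59) and *CESA6* (r = 0.57). The lowest values were those of *CESA6* and *CESA8* (r = −0.72) and of *CESA2* and *CESA7* (r = −0.71). *CESA3* went with *CESA4* (r = 0.87) although they belong to different complexes, and less with its primary wall partners *CESA1* (r = 0.31) and *CESA6* (r = −0.11). The secondary wall members were less alike (*CESA4* and *CESA7* r = 0.59, *CESA7* and *CESA8* 0.54, *CESA4* and *CESA8* 0.27), with counts of 33 to 181 reads behind them.

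Of 13687 other genes with a mean of at least 5 CPM, those most like the mean of *CESA4*, *CESA7* and *CESA8* over 12 libraries were AT5G45510 (r = 0.950), *XCP2* (r = 0.945), *APT2* (r = 0.931), *PIP5K1* (r = 0.930) and AT3G63510 (r = 0.930). *XCP2* encodes a cysteine protease of xylem vessels. As the highest of 13687 values, over libraries that share genotypes and scaling, the r in this paragraph are a description only. Those most like the mean of *CESA1*, *CESA3* and *CESA6* were *XT2* (r = 0.962), AT3G53990 (r = 0.931), AT1G69140 (r = 0.926), AT1G29670 (r = 0.913) and AT2G21380 (r = 0.912). That mean joins members that did not all vary together (*CESA3* and *CESA6* r = −0.11). AT1G69140 is annotated as a transcribed pseudogene. *XT2* encodes a xylosyltransferase that makes xyloglucan, the main hemicellulose of primary walls, and had a mean of 64.5 CPM.

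Proteins that work with the primary wall complex were read from a list of 16 genes, of which 12 passed the filter. In *ubp12/13* against wt 1 rose and 1 fell, with a median log2FC of −0.03, where 16.0% of all genes rose and 15.1% fell, so neither count stands above that of genes at large. *CTL1*, a chitinase-like protein needed for cellulose crystallization, fell from 404 ± 13.5 to 318 ± 11.5 CPM (SD, n = 3; log2FC −0.35 ± 0.08, SE; edgeR adjusted p = 0.00941). AT1G45688 rose from 57.3 ± 8.10 to 78.8 ± 4.53 CPM (log2FC 0.45 ± 0.11, SE; edgeR adjusted p = 0.0171), a call lost without *ubp12/13* replicate 1 (adjusted p = 0.0616) or 3 (0.0501). By library totals *CTL1* did not pass (adjusted p = 0.0833). The endoglucanase *KOR1* (log2FC −0.00), *COB* (−0.00), which guides cellulose deposition, and *CSI1* (−0.05), which links the complexes to microtubules, were close to 0 on the log2 scale, each with an SE of 0.08 or 0.09. *CSI3* (log2FC −0.40, edgeR adjusted p = 0.0607) and *KOB1* (0.30, adjusted p = 0.0884) did not overlap with wt but did not pass.

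Other genes of secondary wall synthesis, 13 of 16 of which passed the filter, had 2 that rose and 1 that fell, near the 16.0% and 15.1% of all genes, and a median log2FC of 0.20. *PARVUS*, a glycosyltransferase of xylan synthesis, rose from 6.07 ± 0.976 to 23.5 ± 6.83 CPM (log2FC 1.92 ± 0.24, SE; edgeR adjusted p = 0.000714). *LAC4*, a laccase that polymerizes lignin, rose by a log2FC of 0.71 ± 0.15 (SE; edgeR adjusted p = 0.00783). *FLA12*, a fasciclin-like arabinogalactan protein of secondary walls, fell by 1.09 ± 0.29 (SE) on the log2 scale (edgeR adjusted p = 0.0214), a call lost without wt replicate 1 (0.0739) or *ubp12/13* replicates 1 or 2 (0.0585 and 0.0506), and *FLA11* was lower without passing (log2FC −0.44, adjusted p = 0.0582).

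Only 10 of 24 listed regulators of secondary walls passed the filter. *NST1*, *NST2* and *SND1*, the NAC factors that switch on fibre walls, had 0 reads in all libraries of wt and *ubp12/13*, and *MYB46* and *MYB83*, the MYB factors below them, 2 to 10 reads per library. Of these 10, 2 fell and none rose, beside 15.1% and 16.0% of all genes. *MYB20* fell from 17.4 ± 0.868 to 7.74 ± 0.768 CPM (log2FC −1.176 ± 0.12, SE; edgeR adjusted p = 0.000258), and *VNI2*, a NAC factor that inhibits the vessel regulator VND7, by 0.59 ± 0.14 (SE) on the log2 scale (edgeR adjusted p = 0.0121, or 0.0570 without *ubp12/13* replicate 1). *VND4*, one of the vessel factors, was at a log2FC of 0.55 (edgeR adjusted p = 0.0767).

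Markers of other cell types also differed. All 5 genes listed as xylem vessel markers (*XCP1*, *XCP2*, *MC9*, *ACL5* and *ATHB8*) fell in *ubp12/13*, by log2FC of −0.33 to −1.62. Of all genes tested, 15.1% fell. *XCP1*, like *XCP2* a cysteine protease of vessels, fell most (log2FC −1.62, edgeR quasi-likelihood test, adjusted p = 0.000268). The calls of *XCP2* (log2FC −0.49, edgeR adjusted p = 0.0190), *MC9* (−1.28, 0.0333) and *ACL5* (−0.46, 0.0358) were less firm. That of *XCP2* was lost without wt replicate 1 or *ubp12/13* replicates 1 or 3 (adjusted p = 0.0565 to 0.0809), that of *MC9* without replicates 1 or 3 of either genotype (0.0591 to 0.139), and that of *ACL5* without any library other than wt replicate 1 (0.0527 to 0.126). By library totals *XCP2* and *ACL5* did not pass either. For *ATHB8* (log2FC −0.33), whose adjusted p was the largest of the 5, no such checks were made. The summed level of the 5 was 101 to 109 CPM in wt and 66.3 to 77.8 CPM in *ubp12/13*, and 88.2 to 102 CPM in the single mutants. Of 4 phloem markers that passed, 3 fell, and so did 4 of 5 markers of dividing cells (summed 55.3 to 61.2 CPM in wt and 31.9 to 35.3 CPM in *ubp12/13*) and 5 of 5 of leaf mesophyll (40854 to 51292 and 32133 to 34938 CPM). The same 15.1% of all genes tested stands beside these counts. The calls of *CA1* and *LHCB1.1* among the mesophyll markers were lost by library totals (adjusted p = 0.0804 and 0.0667), that of *CA1* also without *ubp12/13* replicate 1 (0.0626) and that of *LHCB1.1* without wt replicates 1 or 3 or *ubp12/13* replicates 1 or 2 (0.0506 to 0.0944). For the mesophyll marker *RBCS1A* no such checks were made. Among the markers of dividing cells the call of *CYCB1;1* was lost without wt replicate 1 or *ubp12/13* replicates 1 or 3 (0.0509 to 0.0647). Of 8 root markers 2 passed the filter in this comparison. *CASP1*, with 0.0878 CPM on average in wt and 1.58 CPM in *ubp12/13*, passed only through the *ubp12/13* libraries. Its rise is near the floor and is not counted as a result. The part of these cell types in the values of the CESA genes was not tested, and in whole seedlings fewer cells of a type and less RNA per cell cannot be told apart.

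**Figure D4:**
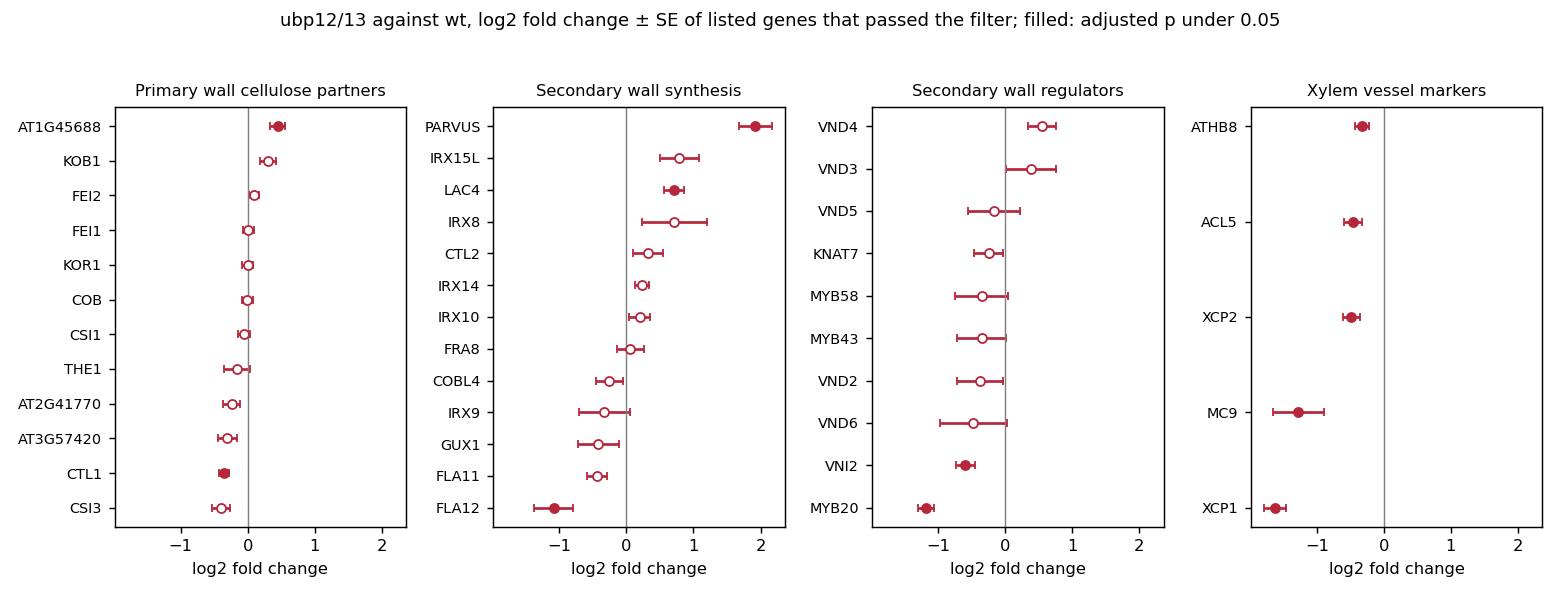
Log2 fold change ± SE (horizontal axis) in *ubp12/13* against wt of the genes that passed the filter in 4 lists; filled points passed an adjusted p of 0.05. All 5 genes listed as xylem vessel markers are filled and below 0 (−0.33 to −1.62), while the list of secondary wall synthesis spans −1.09 (*FLA12*) to 1.92 (*PARVUS*).

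The 300 bases before the annotated start of each member were read in TAIR10 on the gene's strand. The windows of *CESA5* and *CESA6* are shown because these genes had the closest exons and varied together, and because both hold the word GGTCCCAC. It is marked in capitals and begins 61 and 68 bases before the start. This is a form of GGNCCCAC, the core bound by class I TCP factors, a family of plant growth regulators. The windows are chr5:3072570-3072869 and chr5:25880733-25881032, both on the plus strand.
CESA5: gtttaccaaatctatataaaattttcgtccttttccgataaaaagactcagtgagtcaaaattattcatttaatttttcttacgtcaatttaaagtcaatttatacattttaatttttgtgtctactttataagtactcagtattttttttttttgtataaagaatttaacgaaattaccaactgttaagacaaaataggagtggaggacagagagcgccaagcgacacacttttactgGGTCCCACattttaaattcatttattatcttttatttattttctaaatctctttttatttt
CESA6: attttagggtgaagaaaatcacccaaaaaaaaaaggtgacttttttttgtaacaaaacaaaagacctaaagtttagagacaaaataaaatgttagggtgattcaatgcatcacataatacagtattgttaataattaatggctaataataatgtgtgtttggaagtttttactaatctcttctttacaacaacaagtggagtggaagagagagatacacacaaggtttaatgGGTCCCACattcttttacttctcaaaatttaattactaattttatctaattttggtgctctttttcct
On either strand, GGNCCCAC was in 1.184% of 27443 protein-coding gene windows of the same length, and in no other member's window. The word was looked up after these sequences had been read. Of the AC elements known from genes of lignin and secondary walls, ACCTACC was in 1.33% of all windows, ACCAACC in 3.18% and ACCTAAC in 2.93%. Among the members only *CESA9* held any, the last of these. The windows of *CESA9*, *CESA4* and *CESA8* overlap another annotated gene (AT2G21760, AT5G44020 and AT4G06845). AC elements outside the 300 bases or with other spellings were not examined. The words CTCTGCTC, CTCTGCTT, CTCTGTTC and CTCTGTTT, which the histone demethylase REF6 is known to bind, were in 6.87% of all windows and in none of the members' windows.

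H2Aub1 was measured in wt and *ubp12/13* rosette leaves from plants grown for 15 days on agar and 2 weeks on soil, older and of another tissue than the seedlings. The study's list holds 1285 regions in which H2Aub1 was higher in *ubp12/13* than in wt in both of 2 replicates. None of the 9 members had such a region in the gene or the 2 kb before its start, where 6.02% of 27444 protein-coding genes had at least 1. The nearest region to *CESA2* lay 0.566 kb beyond the end of the gene and that to *CESA1* 4.94 kb beyond its end, both on the side away from the start. For the other 7 members the distance was 15.9 to 126 kb, beside a median of 34.2 kb over all protein-coding genes. The regions give no level per replicate, so no test was made. Regions of H2Aub1 decrease were not used, so a loss of H2Aub1 at the members was not examined.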

How the data were processed

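The authors trimmed 50-base single-end reads, mapped them to TAIR10 with TopHat2, kept reads of high mapping quality and deposited raw counts per gene made with HTSeq 0.11.1, and these counts were used as deposited. H2Aub1 regions were the authors' merged regions of increase, pooled over 2 replicates, whose deposited score is 1 in every row and was not used. The other ChIP files were not used here. The members, lists and tests were chosen with earlier results of these data known.

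Nuclear genes with more than 1 CPM in at least 2 libraries were tested with edgeR 4.0.16 (TMM, quasi-likelihood F-test, Benjamini-Hochberg over all genes tested, adjusted p under 0.05), pair by pair, or over 12 libraries for the sum test and the test over genotypes. DESeq2 1.42.0 was an alternative. CPM and RPKM use TMM library sizes and exon lengths of the RefSeq annotation, in R 4.3.3 and Python 3.11.15. From each list up to 4 genes with the smallest adjusted p and no overlap with wt were named by rule; others (*KOR1*, *COB*, *CSI1*, *NST1*, *NST2*, *SND1*, *MYB46*, *MYB83* and the root markers) were named after their values were seen. Replicate libraries differed by 5.51 to 18.9 in chi-square per degree of freedom, so none was a repeat. RNA replicates were biological per the labels.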

Additional observations from a re-analysis of the deposited data

Results flagged for a closer look

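*CESA3* and *CESA4* are listed because their change in *ubp12/13* was not the sum of the changes in the libraries labelled as single mutants. On the log2 scale the change in *ubp12/13* minus the sum of the changes in *ubp12* and in the libraries labelled *ubp13* was −0.34 for *CESA3* and −0.64 for *CESA4*, by a test of the difference itself (edgeR quasi-likelihood test, adjusted p = 0.0387 and 0.0353). *UBP13* counts were higher, not lower, in the libraries labelled *ubp13*. By library totals the values were −0.13 (adjusted p = 0.416) and −0.43 (0.127). By DESeq2 *CESA4* did not pass (0.0527), and *CESA3* did not pass without a filter (0.0952) or in thinned counts (0.0641). Leaving out 1 library ended the call of *CESA3* for all libraries but *ubp13* replicate 2 (adjusted p up to 0.0901). That of *CESA4* was lost without wt replicates 2 or 3, *ubp12* replicates 1 or 3, *ubp13* replicate 3 or any of *ubp12/13* (up to 0.0849). Neither difference is therefore firm.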

How the results depend on the processing

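Of the 472 values of single members recomputed under other settings, 431 kept their direction and their side of the threshold, 22 were no longer past it, 9 came to be past it and 10 changed sign; leaving out libraries gave 301, 53, 5 and 19 of 378. The cause was not tested. Members called higher and lower in *ubp12/13* against wt (2 and 1) were 3 and 0 by library totals, 2 and 0 without a filter on low counts and by DESeq2, and 0 and 0 with an absolute log2FC of at least 1. In a common fit of 12 libraries *CESA5* was called higher as well (edgeR adjusted p = 0.0444). Against *ubp12* (0 higher and 3 lower) the counts were 2 and 0 by library totals, with 1 lower in counts thinned to equal depth (*CESA7*) and 0 lower at that log2FC. *CESA7* was not called by DESeq2, without a filter or in a common fit. Against the libraries labelled *ubp13* (1 and 1) the counts were 3 and 0 by library totals, 0 higher without a filter, 2 lower in a common fit of 12 libraries, and 0 and 0 at that log2FC. In thinned counts *CESA9* was called higher there (edgeR adjusted p = 0.0499) and *CESA2* was not. Members differing from the sum of the single mutants (2) were 0 by library totals and 1 without a filter, by DESeq2 and in thinned counts.

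With the replicate number as a block, *ubp12/13* against wt gave 0 higher and 0 lower (edgeR adjusted p = 0.0506 for *CESA6*, 0.0790 for *CESA2* and 0.0781 for *CESA8*), and against the libraries labelled *ubp13* 2 higher. Same-numbered libraries deviated together with r of −0.16 to −0.06 between wt and *ubp12/13*, and of −0.16 to 0.29 over the 5 compared pairs. Among the mutants r was above 0 throughout. It was 0.04 to 0.29 between *ubp12* and *ubp12/13*, and 0.01 to 0.25 between the libraries labelled *ubp13* and *ubp12/13*. For libraries of different number r was −0.24 to 0.11 and −0.25 to 0.13. Between the single mutants it was 0.10 to 0.21 for the same number. The main tests took no pairing, and a batch shared by same-numbered mutant libraries was not tested. The block changed no other count.

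Leaving out 1 library gave 0 to 2 higher and 0 to 1 lower in *ubp12/13* against wt, 0 to 2 lower against *ubp12*, 0 to 2 higher and 0 to 2 lower against the libraries labelled *ubp13*, 0 to 2 for the sum of single mutants and 0 to 4 for any difference among genotypes. The difference in the secondary wall share was −1.28 to −0.814 percentage points without 1 library and had exact p = 0.25 within replicate numbers, the smallest that 3 pairs allow.

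Log2FC values that changed sign by library totals were 0.0283 for *CESA3* (*ubp12/13* against wt), 0.10 and 0.18 for *CESA1* (against *ubp12* and *ubp13*), −0.0050 for *CESA5* (*ubp13* against wt), and 0.0489, 0.17 and 0.15 for *CESA1*, *CESA6* and *CESA8* against the sum of the single mutants. In thinned counts they were 0.0746 for *CESA7* in *ubp12*, and −0.0134 for *CESA5* and −0.46 for *CESA9* in *ubp13*. Those that changed sign without 1 library ran in *ubp12* from −0.45 to 0.28 (*CESA9*), −0.27 to 0.18 (*CESA7*) and −0.0533 to 0.0042 (*UBP13*). In *ubp13* they ran from −0.0069 to 0.12 (*CESA5*), −0.0298 to 0.52 (*CESA9*) and −0.31 to 0.13 (*CESA7*), for *CESA1* against *ubp13* from −0.0760 to 0.0040, and against the sum from −0.0267 to 0.11 (*CESA2*), −0.11 to 0.0682 (*CESA6*) and −0.17 to 0.10 (*CESA8*). Depth limits *CESA9*, with 4 to 34 reads per library.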
